A study of Mus musculus with 9 samples.

Results

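The genes described here carry the adrenergic and muscarinic signals of the heart: the receptors Adrb1, Adra1a, Adra1b and Chrm2, the G protein alpha subunits Gnas and Gnai2, the adenylyl cyclases Adcy5 and Adcy6, and the cAMP phosphodiesterase Pde4d. These 9 genes were listed by name, and a gene was measured where the array's annotation named at least 1 transcript cluster (a set of probes summarised to a single level) with that symbol alone. On this rule 6 of the 9 genes were measured, with 1 cluster each, among 30087 genes with a cluster of their own and 65534 clusters in all. No cluster was named for Adrb1 or Adra1a, and Pde4d was named only in a cluster that carries several symbols, so these 3 genes were not analysed here.

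Noradrenaline and adrenaline speed and strengthen the heartbeat mainly through beta-adrenergic receptors, which act through the stimulatory alpha subunit (Gnas) on adenylyl cyclase. The cyclase makes cAMP, and cAMP activates protein kinase A (PKA), which phosphorylates channels and regulators of calcium handling and of the sarcomere. Acetylcholine from the vagus nerve acts in the opposite direction through the muscarinic receptor Chrm2 and inhibitory alpha subunits such as Gnai2, while alpha1-adrenergic receptors such as Adra1b act through Gq and phospholipase C.

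All samples came from 3 male C57BL/6 mice aged 8 weeks that underwent 45 min of ligation of the left anterior descending coronary artery and 24 h of reperfusion. The left ventricle was divided into the ischemia zone (IZ), the zone bordering it (BZ) and a remote zone without ischemia (NIZ), and 3 samples of each, numbered 1 to 3, went on 1 array each. The NIZ therefore belonged to operated hearts, and no sham heart is among the samples. The labels do not tie a replicate number to a mouse, so the p-values between zones measure the spread between these samples.

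The labels name heart as the source but carry the zone under a tag that reads brain. All 16 cardiomyocyte markers lay above the median of every array, with mean log2 levels from 8.75 to 13.82, against 4 of 9 neuron markers. Values are log2 levels after RMA, and the array medians ran from 4.19 to 4.29. No result between zones compared the levels of different genes, because each cluster has its own probes. Levels were set beside the array medians for the marker lists and to call a cluster dim. They were also ranked to choose the brightest pathway gene of each role. In pieces of tissue, fewer cells of a type and less RNA per cell cannot be told apart.

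The zones of the 6 measured genes overlapped in every comparison, and no gene passed the test. In the limma fit over all 9 arrays, 0 of 6 were called at an adjusted p of 0.05 in any of the 3 comparisons (IZ with NIZ, BZ with NIZ, IZ with BZ), against a background of 0.0% of the 65534 clusters in each. The 0 over all clusters rested on replicate 3 of NIZ: without this array 216 clusters (0.33%) were called between IZ and NIZ and 173 (0.264%) between BZ and NIZ, and still 0 of the 6 genes. At an unadjusted p of 0.05 the count was again 0 of 6, against 3.96%, 5.28% and 3.84% of all clusters. Zones that did not overlap were found for 6.33%, 6.23% and 5.77% of all clusters and for 0 of the 6 genes. The median log2 difference of the 6 genes was 0.01 for IZ less NIZ and 0.10 for BZ less NIZ, beside -0.01 and 0.00 over all clusters. The 2 comparisons share the NIZ arrays. IZ less BZ was -0.13 log2 for Adra1b, -0.05 for Chrm2, 0.02 for Gnas, -0.07 for Gnai2, -0.15 for Adcy5 and 0.02 for Adcy6. In the methods' test, which compares the 3 zones at once with Bonferroni-corrected pairs, 0 of 6 genes passed before or after adjustment, against 0.622%, 0.879% and 0.685% of clusters before and 0.0% after it. Each gene was also compared by a two-sided exact permutation test, whose smallest possible p with 3 arrays a zone is 0.1, and the p-values of the 6 genes lay between 0.2 and 1.

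**Figure D1:**
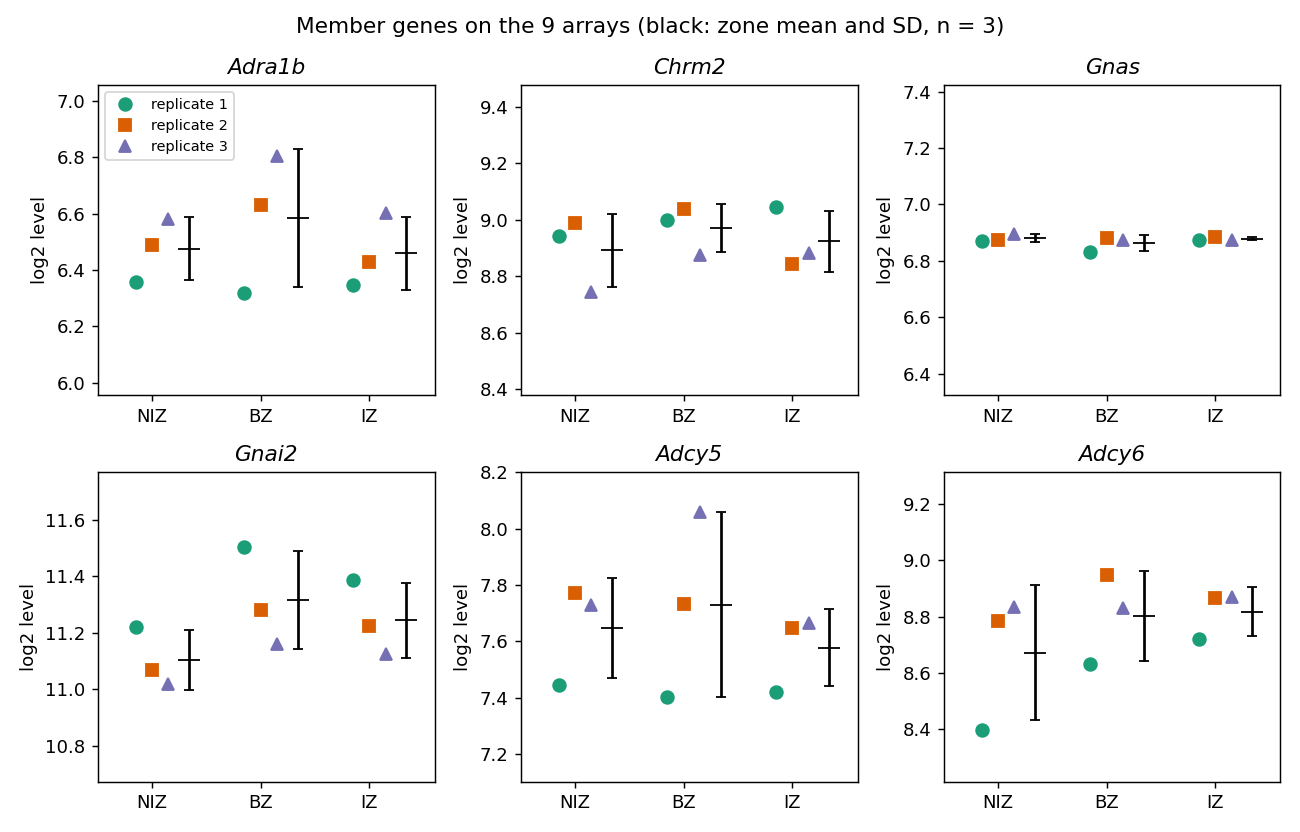
Log2 level of the 6 measured genes on each of the 9 arrays, by zone (x axis) and replicate number (colour and marker), with the zone mean and SD (n = 3) in black. Every panel spans the same log2 range, the zones overlap in all 6, and replicate 1 is the lowest of its zone for Adra1b, Adcy5 and Adcy6 and the highest for Gnai2.

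Of the receptors, Adra1b, the alpha1B-adrenergic receptor, gave log2 levels of 6.35, 6.43 and 6.60 in replicates 1, 2 and 3 of IZ, 6.32, 6.63 and 6.80 in BZ, and 6.36, 6.49 and 6.58 in NIZ. In each zone replicate 1 was lowest and replicate 3 highest, and the zones covered one another. IZ and NIZ means differed by -0.02 log2 (95% interval -0.32 to 0.28), and BZ and NIZ means by 0.11 log2 (-0.19 to 0.41). Adra1b lies on chromosome 11 (GRCm38.p6, 43774605 to 43901250).

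Chrm2, the main muscarinic receptor of heart muscle, gave 9.04, 8.84 and 8.88 log2 in IZ, 9.00, 9.04 and 8.88 in BZ, and 8.94, 8.99 and 8.74 in NIZ. Replicate 3 was lowest in BZ and NIZ, but replicate 2 was lowest in IZ. The means differed by 0.03 log2 in IZ against NIZ (95% interval -0.16 to 0.23) and by 0.08 log2 in BZ against NIZ (-0.11 to 0.27). A difference of more than 0.27 log2 in either direction thus lay outside both intervals.

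Of the alpha subunits, Gnai2, which couples Chrm2 to the inhibition of adenylyl cyclase and is also abundant in leukocytes, gave 11.39, 11.22 and 11.12 log2 in IZ, 11.51, 11.28 and 11.16 in BZ, and 11.22, 11.07 and 11.02 in NIZ. At each of the 3 replicate numbers BZ was highest, IZ next and NIZ lowest, and in each zone replicate 1 was highest and replicate 3 lowest. The difference between BZ and NIZ was 0.28, 0.21 and 0.14 log2 at numbers 1, 2 and 3, and that between IZ and NIZ was 0.17, 0.15 and 0.10. The BZ mean was 1.16-fold the NIZ mean (95% interval 0.98 to 1.37; limma adjusted p = 0.854) and the IZ mean 1.10-fold (0.93 to 1.31; adjusted p = 0.999). The fit was repeated with the replicate number held as a block. With a fixed block on all arrays, the limma p of BZ against NIZ was 0.00196 before and 0.669 after adjustment over all clusters. That of IZ against NIZ was 0.0128 before and 0.807 after adjustment. This fit also matched IZ by number. In it 4735 of 65534 clusters had an unadjusted p under 0.05 in BZ against NIZ, and 3898 in IZ against NIZ. With the block on the BZ and NIZ arrays alone, added after the data were seen, the limma p was 0.0139 before and 0.724 after adjustment. With a random block on all arrays, the limma p of BZ against NIZ was 0.052 before and 0.742 after adjustment. That of IZ against NIZ was then 0.166 before and 0.912 after adjustment.

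Markers of leukocytes were measured on the same arrays. The mean log2 level of the 14 monocyte and macrophage markers ran from 8.39 to 8.90 in IZ, from 8.23 to 9.07 in BZ and from 8.00 to 8.41 in NIZ. All 14 markers had a higher mean in IZ than in NIZ (median difference 0.48 log2), and 12 of 14 had a higher mean in BZ (0.47). Unlike Gnai2, this list was higher in IZ than in BZ at numbers 2 (8.78 against 8.49) and 3 (8.39 against 8.23). Of 8 lymphocyte markers, 7 had a higher mean in IZ than in NIZ (median difference 0.26 log2) and 7 in BZ (0.22). Neutrophil markers (12 genes) ran from 7.31 to 7.98 in IZ, from 6.21 to 8.96 in BZ and from 5.86 to 8.86 in NIZ, and were highest in replicate 1 of BZ and NIZ. Of these 12, only 6 had a higher mean in IZ than in NIZ (median difference 0.03 log2) and 8 in BZ (0.16). The part of these lists in the level of Gnai2 was not tested.

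**Figure D2:**
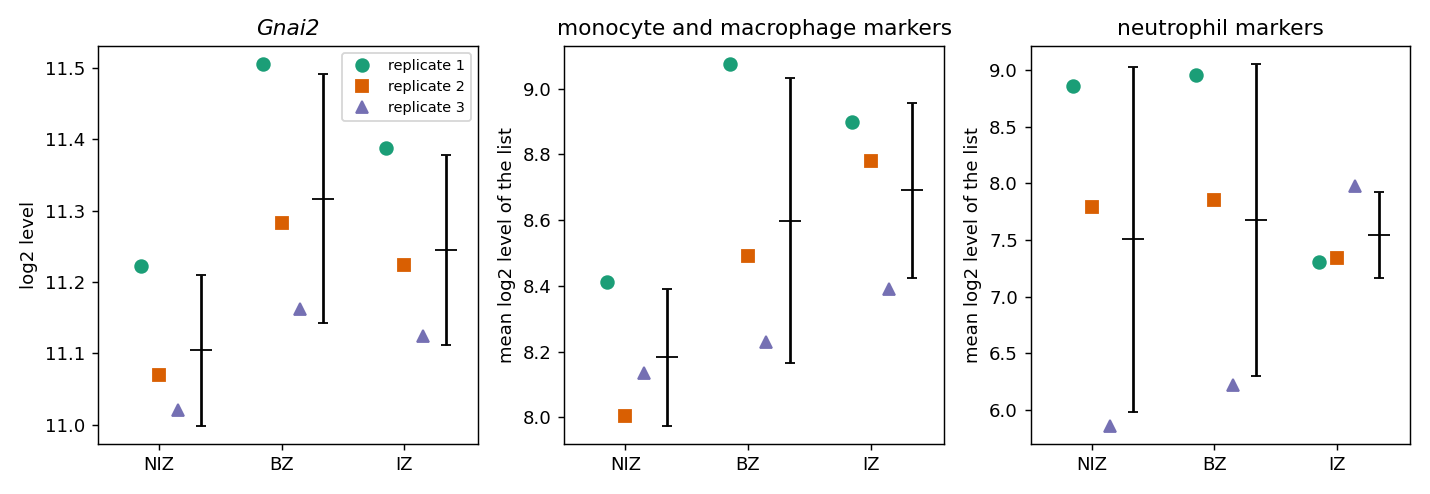
Log2 level of Gnai2 (left) and mean log2 level of 14 monocyte and macrophage markers (middle) and 12 neutrophil markers (right) on each array, by zone and replicate number, with the zone mean and SD (n = 3) in black. Gnai2 is highest in BZ and lowest in NIZ at every replicate number, the macrophage markers have their lowest mean in NIZ, and the neutrophil markers are highest in replicate 1 of BZ and NIZ.

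Gnas, the stimulatory alpha subunit, hardly varied. Its log2 levels were 6.88, 6.88 and 6.88 in IZ, 6.83, 6.88 and 6.88 in BZ, and 6.87, 6.88 and 6.90 in NIZ. The whole range over the 9 arrays was 0.07 log2, only 6 distinct values occurred, and 1 of them stood on 4 arrays. As few distinct values or fewer, 6 at most, occurred in 29.1% of all clusters, while 2.51% of the clusters had a smaller SD than Gnas. The interval of the difference was the narrowest of the 6 genes, -0.07 to 0.07 log2 in IZ against NIZ and -0.09 to 0.05 in BZ against NIZ. The locus makes several overlapping transcripts from different promoters, some of them antisense, and which of them the cluster's probes match was not analysed here.

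The change of Gnas relative to Gnai2 was followed within each array. The difference Gnas minus Gnai2 was -4.51, -4.34 and -4.25 log2 in IZ, -4.67, -4.40 and -4.29 in BZ, and -4.35, -4.19 and -4.12 in NIZ. These values carry the probes of both clusters and have no zero of their own, so only their change between zones was read. The mean was lower by 0.23 in BZ than in NIZ (-4.45 ± 0.20 against -4.22 ± 0.12, SD, n = 3; exact permutation p = 0.2) and by 0.14 in IZ than in NIZ (-4.37 ± 0.13; exact permutation p = 0.3), with overlap between the zones in both. Because Gnas hardly varied, these values largely repeat those of Gnai2 with the sign reversed. Gnai2 alone differed by 0.21 log2 in BZ against NIZ and by 0.14 in IZ against NIZ.

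Of the adenylyl cyclases, Adcy5 and Adcy6 are the main forms of heart muscle. Adcy5 gave 7.42, 7.65 and 7.67 log2 in IZ, 7.40, 7.73 and 8.06 in BZ, and 7.45, 7.77 and 7.73 in NIZ. Replicate 1 was lowest in every zone, and replicate 3 of BZ was highest of all. The means differed by -0.07 log2 in IZ against NIZ (95% interval -0.46 to 0.32) and by 0.08 in BZ against NIZ (-0.31 to 0.47), the widest intervals of the 6 genes.

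Adcy6 gave 8.72, 8.87 and 8.87 log2 in IZ, 8.63, 8.95 and 8.83 in BZ, and 8.40, 8.79 and 8.83 in NIZ. Replicate 1 was again lowest in every zone, and its spread across zones was the widest, from 8.40 in NIZ to 8.72 in IZ. The means differed by 0.15 log2 in IZ against NIZ (95% interval -0.15 to 0.44) and by 0.13 in BZ against NIZ (-0.17 to 0.43). Without replicate 1 of NIZ these differences were 0.01 and -0.01 log2.

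In all 6 genes the replicate number accounted for a larger share of the variation than the zone did. Over the 9 arrays the number accounted for 74.6% of the sum of squares of Adra1b, 72.2% of Adcy5, 68.4% of Adcy6, 60.1% of Gnai2 and 52.9% of Chrm2, and the zone for 13.4%, 9.89%, 17.6%, 37.2% and 12.1%. For Gnas, with its small range, the shares were 40.7% and 22.2%. Medians over the 6 genes were 64.2% for the number and 15.5% for the zone, beside 27.9% and 23.7% over all clusters that vary. For Gnai2 zone and number together left 2.76%. These shares match IZ to the other zones by number, although the numbers were taken as pairs only in BZ and NIZ. Over all clusters, IZ samples 1, 2 and 3 correlated at 0.358, 0.063 and 0.197 with the same number of BZ. With the same number of NIZ the correlations were 0.360, 0.079 and 0.250.

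**Figure D3:**
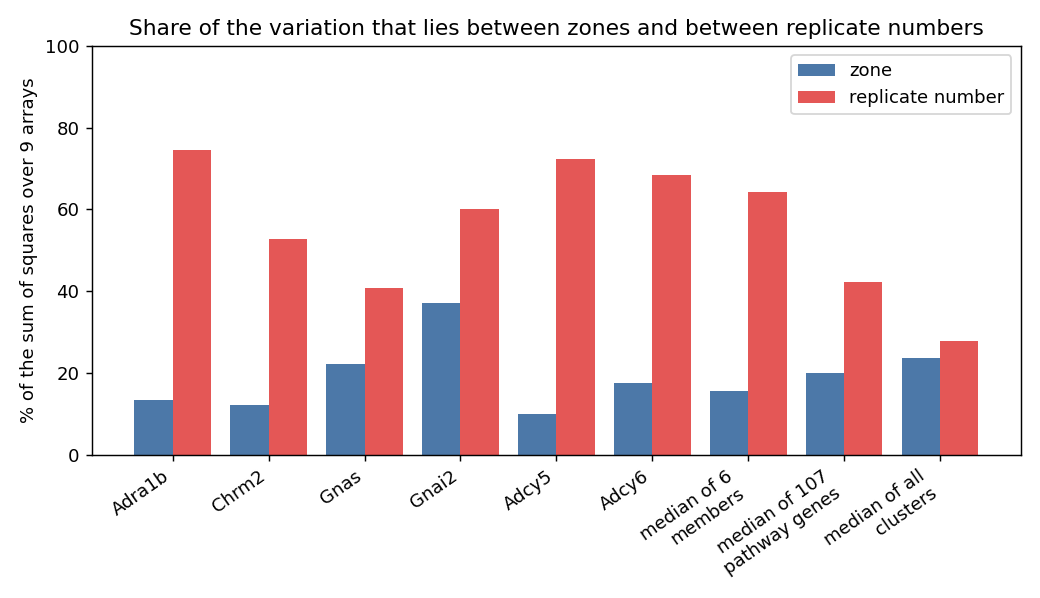
Percentage of each gene's sum of squares over the 9 arrays that lies between the 3 zones (blue) and between the 3 replicate numbers (red), for the 6 measured genes and as medians over these genes, over 107 other pathway genes and over all clusters that vary. The number accounts for the larger share in all 6 genes, from 40.7% in Gnas to 74.6% in Adra1b, against a median of 27.9% over all clusters. IZ is matched by number here, although the numbers were taken as pairs only in BZ and NIZ.

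The replicate number was tested in the 6 BZ and NIZ arrays, whose same-numbered samples deviated from their zone means together. These zones were chosen for that agreement, measured on the same values over all clusters. Small p-values for the number were thus favoured, over all clusters as well. In a limma F test with the zone in the fit, 5 of 6 genes had an unadjusted p under 0.05, against a background of 12.6% of all clusters. These were Adcy6, Gnai2, Adra1b, Chrm2 and Adcy5, with limma p-values from 0.0237 to 0.0466 before and from 0.297 to 0.386 after adjustment over all clusters. After adjustment 0 of 6 genes and 0.0% of all clusters were called. In the same F test on all 9 arrays, 4 of 6 genes had an unadjusted p under 0.05, against 12.5% of all clusters. The background of 12.6% includes dim clusters. With these dropped, 6711 of 33293 clusters had an unadjusted p under 0.05, which is a larger share. The mean of BZ and NIZ was 7.42 log2 at number 1 against 7.89 at number 3 for Adcy5, 6.34 against 6.69 for Adra1b, 8.51 against 8.83 for Adcy6 and 11.36 against 11.09 for Gnai2.

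Replicate 1 was the lowest array of every zone for 3 of the 6 genes, against 8.26% of all clusters, and the highest for 1 of 6, against 5.94%. Adra1b and Adcy5 had the most similar values, with a root mean square difference of 0.08 log2 over the 9 arrays after each was centred on its own mean. Other measures also moved with the number. The neutrophil list deviated from its mean by 1.38, 0.28 and -1.36 log2 in replicates 1, 2 and 3 of BZ and by 1.29, 0.22 and -1.72 in NIZ, but by -0.27, -0.24 and 0.41 in IZ. The cardiomyocyte list stayed within -0.09 and 0.12 log2 on all arrays. The 6 immediate early genes deviated by 0.62, -0.02 and -0.38 log2 in NIZ, and the 6 atrial markers by 1.65 in replicate 2 of NIZ and 0.82 in replicate 2 of BZ. The part of these lists in the pattern of the signalling genes was not tested, and the labels do not say whether a number stands for a mouse, a day or neither.

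Promoter windows are shown for Adra1b and Adcy5, because their levels tracked each other most closely. The RefSeq table (GRCm38.p6) holds windows from 250 bases before to 50 after an annotated start, and 6 of the 9 listed genes had one. Capitals mark the GC box (GGGCGG, or CCGCCC on the other strand), a site that Sp1-like factors can bind. The first line is Adcy5, chr16:35154614-35154913 on the plus strand. The next lines are 2 starts of Adra1b on the minus strand, a downstream start inside the gene (chr11:43836440-43836739) and the upstream start (chr11:43901188-43901487).
Adcy5: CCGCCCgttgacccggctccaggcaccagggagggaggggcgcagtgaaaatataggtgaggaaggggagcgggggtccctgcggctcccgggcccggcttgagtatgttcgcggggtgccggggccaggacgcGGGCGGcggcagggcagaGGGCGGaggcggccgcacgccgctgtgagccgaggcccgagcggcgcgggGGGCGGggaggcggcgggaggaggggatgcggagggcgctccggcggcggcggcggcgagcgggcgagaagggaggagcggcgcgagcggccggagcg
Adra1b, downstream start: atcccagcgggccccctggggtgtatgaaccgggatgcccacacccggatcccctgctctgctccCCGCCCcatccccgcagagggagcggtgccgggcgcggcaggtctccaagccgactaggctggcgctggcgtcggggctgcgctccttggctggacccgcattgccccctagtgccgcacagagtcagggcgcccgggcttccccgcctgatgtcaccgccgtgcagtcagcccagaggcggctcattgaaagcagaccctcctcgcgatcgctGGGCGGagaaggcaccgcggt
Adra1b, upstream start: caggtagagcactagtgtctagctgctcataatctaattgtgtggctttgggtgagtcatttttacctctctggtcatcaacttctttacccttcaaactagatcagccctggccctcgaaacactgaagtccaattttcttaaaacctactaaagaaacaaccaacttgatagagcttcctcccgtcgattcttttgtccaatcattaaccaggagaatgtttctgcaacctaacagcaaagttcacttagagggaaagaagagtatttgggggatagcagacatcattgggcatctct

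The Adcy5 window held 4 GC boxes in 79.0% GC, the downstream Adra1b window 2 in 71.3% GC, and the upstream Adra1b window none in 42.3% GC. At least 1 GC box was found in 35.7% of the 32851 windows of the table, whose median GC content was 52.7%. The short cAMP response element (TGACG, either strand) was found in none of these 3 windows and in 20.8% of all windows. The full palindrome (TGACGTCA), which also contains the short form, occurred in 1.79% of all windows and a TATA box (TATAAA, either strand) in 13.6%, and neither was in the 3 windows. A match is a stretch of letters and was not tested as a binding site.

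Other genes of the pathway were taken from a list of 121, of which 108 were measured. None was called between zones, and 0 of 108 passed the adjusted threshold in any of the 3 comparisons. At an unadjusted p of 0.05 the counts were 4 in IZ against NIZ (3.70% of the list), 3 in BZ against NIZ (2.78%) and 0 in IZ against BZ, each below the share of all clusters given above. The median difference from NIZ was 0.00 log2 for IZ and 0.02 log2 for BZ. Without replicate 3 of NIZ, 1 gene was called in IZ against NIZ: Pde5a, a cGMP phosphodiesterase, by 0.28 log2 (limma adjusted p = 0.0436), among the 0.33% of all clusters called in that setting. It gave 6.36, 6.41 and 6.35 log2 in IZ, 6.35 on all 3 arrays of BZ, and 6.10, 6.08 and 6.50 in NIZ. The same value stood on 4 arrays, among them all 3 of BZ, so BZ added no spread to the fit. The standard error of the IZ against NIZ difference of Pde5a was 0.035 log2 without replicate 3 of NIZ and 0.102 with it.

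The 4 genes in IZ against NIZ were Pde3a, a cAMP phosphodiesterase of heart muscle (0.44 log2), Cacnb2, a subunit of the L-type calcium channel (0.44), Grk3, a receptor kinase (-0.15), and Rapgef3, the cAMP sensor Epac1 (-0.15). All 4 had a limma adjusted p of 0.999. The 3 in BZ against NIZ were Arrb1, an arrestin (0.17), Rgs10, a regulator of G protein signalling (0.24), and Plcb4, a Gq-activated phospholipase C (-0.28), each with an adjusted p of 0.854. These 7 genes were picked out after their values were seen, by their unadjusted p. A single value stood on 4 arrays for Grk3 and for Rapgef3, and on 3 arrays for Arrb1 and for Rgs10. For Grk3 these included all 3 arrays of BZ, which thus added no spread to its fit.

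Zones that did not overlap were found for 4 pathway genes in IZ against NIZ, all lower in IZ: Chrm3, Gnai1 and the anchoring proteins Akap8 and Akap12. They make 3.70% of the list, and over all clusters IZ lay wholly below NIZ in 4.55% and wholly above it in 1.78%. Akap12 gave 7.27, 7.24 and 7.25 log2 in IZ against 8.37, 7.31 and 7.31 in NIZ, so that replicate 1 of NIZ stood far above the other arrays of that comparison. In BZ against NIZ the zones of 1 gene were apart upward, Adcy7, and of 1 downward, Akap8, against 2.51% and 3.72% of all clusters. In IZ against BZ those of 3 were apart upward (Rgs4, Akap9 and Creb1) and of 2 downward (Prkar1b and Akap12), against 2.24% and 3.53%.

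**Figure D4:**
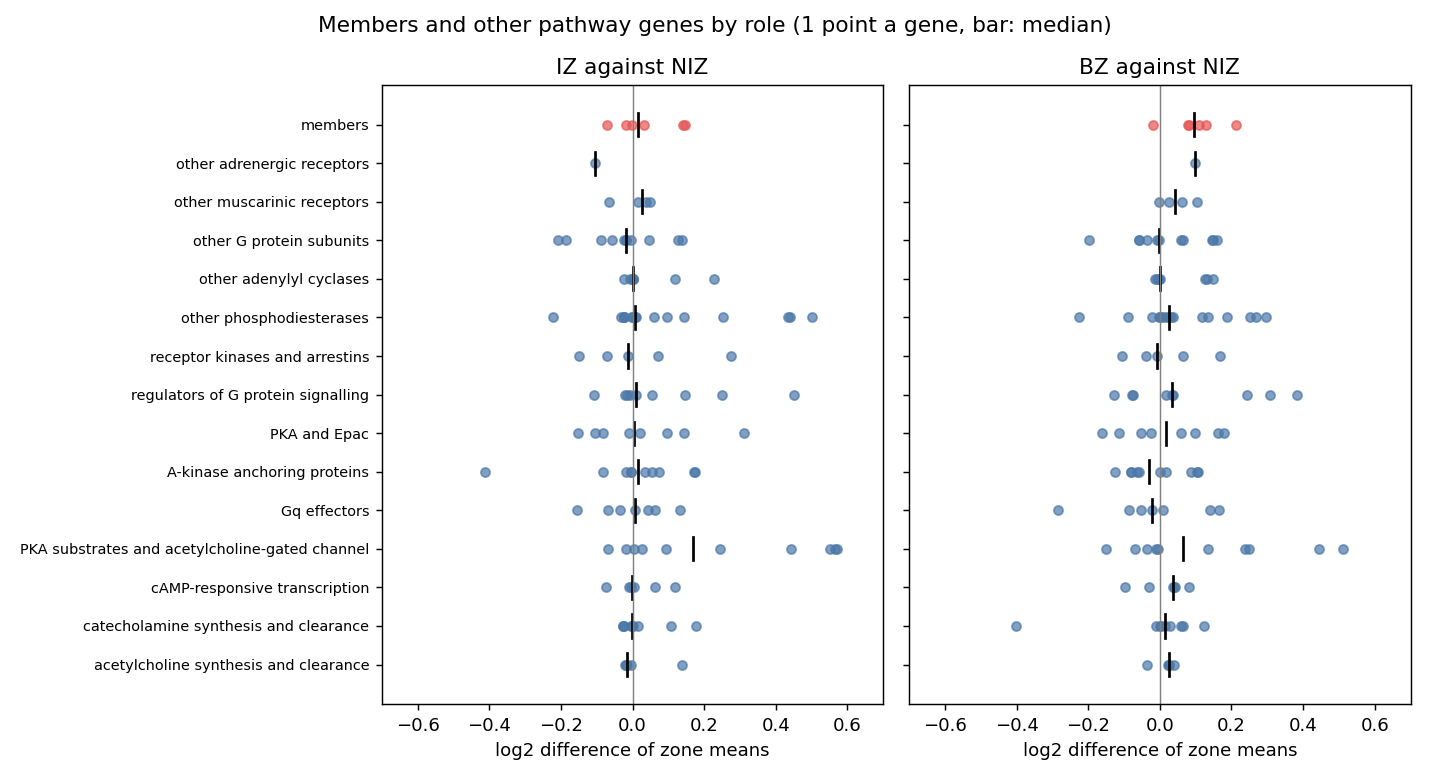
Log2 difference of zone means for the 6 measured genes (red) and 108 other pathway genes by role (blue), in IZ against NIZ (left) and BZ against NIZ (right), with 1 point a gene and a bar at each median. Role medians run from -0.11 to 0.17 log2 in IZ against NIZ and from -0.03 to 0.10 in BZ against NIZ, and no gene in either panel passed the adjusted threshold. The -0.11 and the 0.10 are the values of 1 dim gene, Adra2c, the only measured gene of its role.

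PKA substrates and the acetylcholine-gated channel had the highest role median in IZ against NIZ, 0.17 log2 beside -0.01 over all clusters. The role was picked out after the values were seen, because its median was the highest. Of these 10 genes, 8 lay above 0, up to 0.57 log2 for Kcnj3 (95% interval -0.78 to 1.92), and 0 were called. Replicate 1 of NIZ was the lowest of all 9 arrays for Kcnj3, Cacna1c, Kcnj5, Cacnb2, Pln and Fxyd1. It was not the lowest for Ryr2, Tnni3, Mybpc3 or Ppp1r1a. Kcnj3 gave 6.58 log2 on that array, against 8.15 and 8.85 in replicates 2 and 3 of NIZ.

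The gene with the brightest cluster of each role was followed next, and none was called. Adra2c was the only measured gene of its role, and its levels, from 3.66 to 4.18 log2, lay below the median of every array. In IZ against NIZ the receptors Adra2c and Chrm4 differed by -0.11 and 0.05 log2, and the beta subunit Gnb1 and the cyclase Adcy4 by -0.01 each. Pde2a, a phosphodiesterase stimulated by cGMP, differed by -0.02, Grk5, a receptor kinase of the heart, by 0.27 (95% interval -0.40 to 0.95), and Rgs5, a regulator found in pericytes, by -0.01. Prkaca, the catalytic subunit of PKA, differed by 0.02 and its anchoring protein Akap6 by 0.17. Plcb4 differed by -0.15, and Pln, the inhibitor of the sarcoplasmic calcium pump that PKA relieves, by 0.24. The coactivator Crebbp differed by -0.01, Maob, which breaks down monoamines, by 0.11 (95% interval -1.01 to 1.23), and Bche, which hydrolyses choline esters, by 0.14.

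In BZ against NIZ the same genes lay between -0.40 log2 (Maob) and 0.14 log2 (Pln). Maob gave 7.35, 8.53 and 8.92 log2 in BZ against 8.08, 8.63 and 9.29 in NIZ, with replicate 1 lowest in both zones. Grk5 gave 9.32, 8.90 and 8.22 log2 in BZ against 9.01, 8.49 and 8.74 in NIZ, so that the spread within BZ was wider than any difference of its zone means.

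Variation with the replicate number was also counted over the pathway list. An unadjusted p under 0.05 for the number in BZ and NIZ was found in 12.6% of all clusters. With dim clusters dropped it was found in 6711 of 33293. Of the 108 genes, 36 (33.3%) had such a p, and 0 were called after adjustment. In the role of PKA substrates and the acetylcholine-gated channel, which was picked out after the values were seen because its share was the highest, this held for 8 of 10 genes. It held for 5 of 10 anchoring proteins, 5 of 11 other G protein subunits and 7 of 16 phosphodiesterases. Among receptor kinases and arrestins it held for 0 of 5, and among the muscarinic receptors other than Chrm2 for 0 of 4. The means of these 4 receptors ran from 2.63 to 5.90 log2. Replicate 1 was the highest array of every zone for 10 of the 108 genes (9.26%), against 5.94% of all clusters. It was the lowest of every zone for 25 of the 108 genes (23.15%), against 8.26% of all clusters, and for all 8 of these substrate and channel genes. These 8 were Pln, the ryanodine receptor Ryr2, the calcium channel Cacna1c, troponin I (Tnni3), myosin-binding protein C (Mybpc3), phospholemman (Fxyd1), and Kcnj3 and Kcnj5, which form the potassium channel opened by acetylcholine.

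Kcnj3 gave 8.06, 8.44 and 8.78 log2 in replicates 1, 2 and 3 of IZ, 7.58, 8.49 and 8.84 in BZ, and 6.58, 8.15 and 8.85 in NIZ. Kcnj5 gave 7.96, 8.03 and 8.03 in IZ, 7.66, 7.98 and 8.26 in BZ, and 6.62, 7.45 and 8.29 in NIZ. In both genes replicate 1 was the lowest array of every zone and replicate 3 the highest, with the widest span in NIZ and the narrowest in IZ. Both genes are most abundant in atria, and the 6 atrial markers were highest in replicate 2 of NIZ. Their part in these values was not tested. Cacna1c, whose channel PKA stimulates, gave 9.07, 9.36 and 9.42 in IZ, 8.48, 9.14 and 9.24 in BZ, and 8.01, 8.71 and 9.43 in NIZ.

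Pln gave 13.03, 13.18 and 13.22 log2 in IZ, 12.82, 13.20 and 13.09 in BZ, and 12.46, 13.03 and 13.20 in NIZ. As for Adcy6, replicate 1 was lowest in every zone and lowest of all in NIZ. The genes chosen here share the arrays and were not independent of one another, so the counts describe these 9 samples.

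The genes whose values lay closest to each receptor were sought among those with an SD at least as large. For Adra1b they were Gm3980 and Snai3, with root mean square differences of 0.04 and 0.06 log2 over the 9 arrays among 6438 genes. Gm3980 was dim, with levels from 3.08 to 3.62 log2, below the median of every array, while Snai3 had a mean of 6.10. For Chrm2 they were Gm7206 and Gm8741, with 0.04 and 0.05 log2 among 13999 genes. For Gnai2, added after the values were seen, they were P4hb, an enzyme of protein folding, and Cd300a, a receptor of leukocytes, with 0.03 and 0.04 log2 among 7096 genes.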

How the data were processed

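RNA from each sample (100 ng) was hybridised to its own single-colour Affymetrix GeneChip for mouse transcripts. The deposited log2 values were made by the authors with RMA. Expression Console 1.0 (Affymetrix) and Transcriptome Analysis Console 3.0 stand in the submitters' processing notes. RMA subtracts background and brings arrays to a common distribution, so a shift shared by most clusters cannot be seen. Arrays have no read depth, and 3 arrays per zone limit the precision.

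Of 65534 clusters, 30414 have 1 symbol in the platform annotation, 2146 several and 32974 none. A gene took its brightest cluster with that symbol alone. Coordinates and promoters are RefSeq's (GRCm38.p6). The fit used limma 3.58.1 (R 4.3.3) with a mean for each zone on all 9 arrays, without filter or block, with Benjamini-Hochberg adjustment over all clusters. The fit was tested on simulated data.

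Same-numbered BZ and NIZ samples correlated at 0.618, 0.204 and 0.516 over clusters after zone means were subtracted, all above 0.1, so the numbers were taken as pairs in these zones; for IZ the lowest value was 0.063 with BZ and 0.079 with NIZ. Named genes were the listed genes, the brightest pathway gene of each role and any called gene, with the 2 nearest genes of each measured receptor. The genes and lists were chosen with earlier results of these data known.

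Alternatives were a fixed or random replicate block, array weights, centring on the median, quantile normalization, dropping dim clusters or those without a symbol, a trended variance, fitting the compared zones alone, the methods' test (3 zones at once with Bonferroni-corrected pairs), the mean of a gene's clusters, and leaving out each array or number. A block on the BZ and NIZ arrays alone was added after the data were seen.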

Additional observations from a re-analysis of the deposited data

How the results depend on the processing

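Under 24 alternative settings, 0 of the 6 genes were called in any comparison, and the smallest of their adjusted p was 0.378 (Gnai2, BZ against NIZ, array weights). The replicate block, fixed or random, changed no call: with the fixed block Gnai2 differed by 0.21 log2 in BZ against NIZ (adjusted p = 0.669), and with the block on the BZ and NIZ arrays alone, an alternative added after the data were seen, its adjusted p was 0.724. Of 420 values for the 6 genes, 29 had the opposite sign, none of them called. For the replicate number, all 9 arrays gave an unadjusted p under 0.05 in 4 of 6 genes. Median centring called 920 of all clusters for the number, quantile normalization 569, the filter on dim clusters 575 and the trended variance 12, against 0 in the main setting, and none of these settings called 1 of the 6 genes.

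Leaving out arrays moved the median difference of the 6 genes in BZ against NIZ between 0.021 (without NIZ replicate 1) and 0.17 log2 (without BZ replicate 1). The number of called pathway genes in IZ against NIZ ran from 0 to 1, the 1 being Pde5a without NIZ replicate 3 (0.28 log2, adjusted p = 0.0436). Over all clusters, 216 were called between IZ and NIZ and 173 between BZ and NIZ without this array, 68 and 65 without replicate 3 of every zone, and 0 on leaving out any other array or number. The count of exact p-values at 0.1 was 0, but 1 with quantile normalization (Gnai2, BZ against NIZ) and, on leaving out arrays, from 0 to 1 (Adcy5, IZ against BZ, without BZ replicate 1). Gnas minus Gnai2 in IZ against BZ ran from -0.024 (without BZ replicate 1) to 0.17. With 3 arrays a zone, the 95% intervals leave differences of up to 0.47 log2 undecided for Adcy5 (BZ minus NIZ). How far each cluster stood above background was not examined.

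The following log2 differences, none of them called, changed sign under at least 1 setting, and the cause was not tested. With median centring, the values for IZ minus NIZ were 0.0070 (Adra1b), 0.022 (Gnas), 0.019 (Gnb1), 0.017 (Adcy4), 0.018 (Rgs5) and 0.018 (Crebbp). Those for IZ minus BZ were 0.028 (Adcy4) and 0.031 (Pde2a). With array weights, the values for IZ minus NIZ were -0.0093 (Chrm2), 0.0002 (Gnas), 0.031 (Gnb1), 0.061 (Adcy4) and -0.011 (Prkaca). Those for BZ minus NIZ were 0.10 (Adcy4), 0.044 (Rgs5), 0.017 (Crebbp) and -0.051 (Bche). Those for IZ minus BZ were -0.066 (Adcy6), 0.016 (Chrm4), -0.065 (Rgs5) and -0.026 (Crebbp). With quantile normalization, the values for BZ minus NIZ were 0.019 (Adcy4) and 0.0046 (Pde2a). Those for IZ minus BZ were -0.029 (Adcy6) and -0.020 (Crebbp). On leaving out arrays, IZ minus NIZ ran from -0.088 to 0.039 (Adra1b), -0.041 to 0.12 (Chrm2), -0.0078 to 0.0071 (Gnas), -0.17 to 0.0089 (Adcy5), -0.12 to 0.14 (Gnb1), -0.091 to 0.064 (Adcy4), -0.071 to 0.035 (Pde2a), -0.13 to 0.10 (Rgs5), -0.072 to 0.078 (Prkaca), -0.062 to 0.045 (Crebbp), -0.18 to 0.42 (Maob) and -0.0007 to 0.26 (Bche). BZ minus NIZ ran from -0.0007 to 0.24 (Adra1b), -0.082 to 0.25 (Adcy5), -0.0070 to 0.22 (Adcy6), -0.067 to 0.21 (Adra2c), -0.092 to 0.21 (Gnb1), -0.10 to 0.078 (Adcy4), -0.070 to 0.036 (Pde2a), -0.19 to 0.36 (Grk5), -0.28 to 0.048 (Rgs5), -0.015 to 0.23 (Prkaca), -0.019 to 0.27 (Akap6), -0.084 to 0.29 (Pln), -0.087 to 0.038 (Crebbp), -0.73 to 0.056 (Maob) and -0.089 to 0.15 (Bche). IZ minus BZ ran from -0.11 to 0.026 (Chrm2), -0.0003 to 0.025 (Gnas), -0.15 to 0.023 (Gnai2), -0.32 to 0.012 (Adcy5), -0.070 to 0.087 (Adcy6), -0.13 to 0.060 (Chrm4), -0.19 to 0.087 (Gnb1), -0.079 to 0.060 (Adcy4), -0.048 to 0.045 (Pde2a), -0.086 to 0.46 (Grk5), -0.21 to 0.034 (Prkaca), -0.025 to 0.21 (Akap6), -0.0025 to 0.21 (Plcb4) and -0.044 to 0.062 (Crebbp).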
